A study of Sus scrofa with 15 samples.

Results

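The genes described here are 10 genes whose products build, move, dock, prime and fuse lytic granules: LYST, AP3B1, LAMP1, RAB27A, UNC13D, STX11, STXBP2, STX7, VAMP7 and VAMP8. They were picked by gene symbol for their role, with earlier results of these data known, from the 29886 genes of the deposited count table. All 10 passed the filter on low counts, as did 10939 genes in all. RNA was measured in 3 populations of pig natural killer (NK) cells: blood CD8α high NK cells, liver CD8α high NK cells (the conventional NK cells of the liver) and liver CD8α dim NK cells (the liver-resident NK cells). Each population was sorted from the same 5 pigs, 6 months old, which gave 15 libraries with n = 5 pigs in each population. The labels name no treatment and no engineered allele for any group. Blood cells came from the jugular vein, liver cells from PBS flushed through the portal vein, and all were depleted of CD3+ and CD172a+ cells on magnetic columns and then sorted as CD3-CD172a-CD8α+. The gate that separates the liver populations is the CD8α level itself, so the dim population is defined by a surface marker and not by a function.

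NK cells kill through lytic granules, which are secretory lysosomes filled with perforin and granzymes. A granule first matures from the endolysosomal system, then travels to the contact with the target cell, is tethered at the plasma membrane by RAB27A, is primed by Munc13-4 (the product of UNC13D) and fuses when SNARE proteins on the granule and on the plasma membrane zip together, with syntaxin 11 and its chaperone Munc18-2 (STXBP2) at the plasma membrane. Inherited loss of several of these genes causes immune disease in humans: LYST in Chediak-Higashi syndrome, RAB27A in Griscelli syndrome, AP3B1 in Hermansky-Pudlak syndrome, and UNC13D, STX11 and STXBP2 in familial hemophagocytic lymphohistiocytosis.

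The library totals ran from 2874092 to 3823973 counts in blood CD8α high cells, from 2886686 to 5680221 in liver CD8α high cells and from 2003499 to 3776823 in liver CD8α dim cells. Levels are given as CPM, counts scaled to a common library size, here after TMM normalization. Reads were counted from the 3′ end of transcripts, where a count is not expected to grow with transcript length. No length correction was made. How well the levels of different genes compare was not tested, so ranks, sums and ratios across genes describe counted reads only. The summed level of 10 NK cell marker genes was 3714 to 6318 CPM per library, with all 10 markers detected in each population. The sum includes CD8A and has no reference from other cells, so it cannot show whether the NK cell label held. Its genes went both ways: mean EOMES was 677 CPM in dim cells and 39.5 CPM in blood, and mean TBX21 was 195 and 1143 CPM. CD8A, the gene behind the gate, was at 229 to 634 CPM in blood, 276 to 596 CPM in liver CD8α high cells and 29.5 to 57.0 CPM in liver CD8α dim cells. Since a library is a bulk sample, fewer cells that express a gene and less RNA of it per cell cannot be told apart.

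In the liver CD8α dim cells 3 of the 10 genes were higher than in blood CD8α high cells and 0 were lower: LYST (8.74-fold), UNC13D (2.41-fold) and STX11 (2.10-fold). Between the liver populations 3 of 10 were higher in the dim cells, namely LYST, UNC13D and LAMP1, and 0 were lower, but the LAMP1 call held in 4 of 13 alternatives and was lost with the pig as a block, and without pig 5 LYST alone was called. Between blood and liver CD8α high cells none of the 10 passed the test. A gene was called at a Benjamini-Hochberg adjusted p under 0.05 in edgeR's quasi-likelihood test, adjusted over all 10939 genes. In the same fits 18.2% of all genes tested were called in dim cells against blood (8.62% higher), 14.6% in dim against liver CD8α high cells (6.96% higher) and 0.064% in liver CD8α high cells against blood. The members called were 30.0% of the 10 in each of the dim comparisons, which is 3 genes in a set this small. The median log2 fold change of the 10 genes was 0.43 in dim cells against blood, 0.029 in dim against liver CD8α high cells and 0.11 in liver CD8α high cells against blood, where the medians over all genes tested were 0.0060, 0.016 and -0.024. All comparisons share libraries, so that the dim comparisons are not independent of each other.

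**Figure D1:**
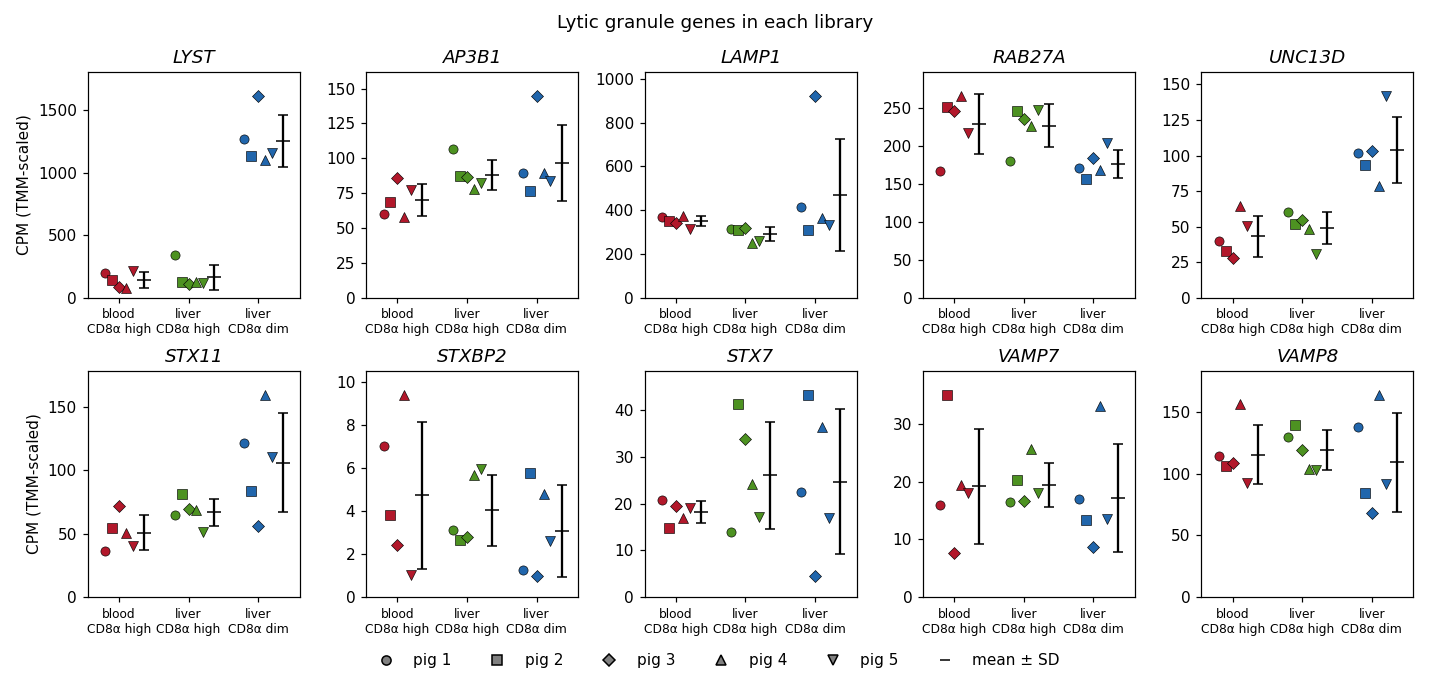
TMM-scaled CPM (linear axis from 0, a separate scale for each gene) of the 10 lytic granule genes in each library, by population and pig, with the mean and SD of 5 pigs. The dim libraries lie above all others for LYST and UNC13D, a single dim library (pig 3) stands far above the rest for LAMP1, and the populations overlap for the other genes.

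Granule biogenesis came first in size, through a single gene. LYST encodes the lysosomal trafficking regulator, a very large BEACH domain protein that limits the size of lysosomes and lytic granules, and lies on chromosome 14 (55433163 to 55634011, Sscrofa11.1). In blood CD8α high cells LYST was at 201, 140, 89.6, 75.9 and 213 CPM in pigs 1 to 5. In liver CD8α high cells it was at 346, 123, 111, 124 and 115 CPM, and in liver CD8α dim cells at 1271, 1137, 1613, 1101 and 1158 CPM. Every dim library was above every library of the other populations, which overlapped each other, and pig 3 had both the highest dim level and the lowest liver CD8α high level. The means were 144 ± 62.3, 164 ± 101.8 and 1256 ± 209.6 CPM (SD, n = 5).

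LYST was higher in the dim cells of 5 of 5 pigs against their own blood cells, by 2.44 to 4.16 on the log2 scale. The log2 fold change against blood was 3.13 ± 0.33 (SE; 95% interval 2.44 to 3.82; edgeR adjusted p = 5.43e-07), and against liver CD8α high cells 2.94 ± 0.33 (adjusted p = 1.45e-06). Liver CD8α high and blood cells differed by 0.19 (95% interval -0.46 to 0.83; adjusted p = 0.9996). By mean level LYST was the 1415th of the 10939 genes in blood, the 1221st in liver CD8α high cells and the 96th in dim cells. It made up 13.8% ± 6.04 of the summed CPM of the 10 genes in blood, 15.03% ± 7.31 in liver CD8α high cells and 53.3% ± 2.52 in dim cells (SD, n = 5). The sum of the 10 genes was 1045, 1054 and 2362 CPM in these populations and, without LYST, 901, 890 and 1106 CPM. Most of the difference in the summed level was thus LYST.

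The liver CD8α high library of pig 1, with the highest LYST of its population (346 CPM), also had the highest level there of EOMES (218 CPM against 14.1 to 62.4 in the other 4), of NCR1 (167 against 11.2 to 40.6) and of KLRB1 (687 against 239.8 to 387), and the lowest CD8A (276 against 426 to 596). These NK cell genes were at 442 to 813, 156 to 356 and 193 to 2316 CPM in the dim libraries, and CD8A at 29.5 to 57.0. Over all 10 NK cell markers that library was the highest of its population for 5 and the lowest for 3. In blood, the library of pig 1 likewise had the highest EOMES (74.0 CPM) and NCR1 (100.5 CPM) and the lowest CD8A (229 CPM). It was not the highest there for KLRB1 (212 CPM) or LYST (201 CPM). The part of these genes in the LYST level of the liver CD8α high library of pig 1 was not tested. Without that library the LYST difference between dim and liver CD8α high cells was 3.405 on the log2 scale.

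B cell markers moved with LYST. The summed level of 5 B cell markers (MS4A1, CD79A, CD79B, PAX5 and BLK) was 50.5 to 119 CPM in blood, 17.8 to 54.2 CPM in liver CD8α high cells and 231 to 670.4 CPM in dim cells, and 3 of the 4 markers tested were higher in dim cells in both dim comparisons. CD79A was at 0 in all 15 libraries, as were 11717 genes of the table, and MS4A1 was at 152 to 475 CPM in dim cells. Among the dim libraries the order was not shared: pig 3 had the lowest B cell sum (231 CPM) and the highest LYST (1613 CPM), and pig 4 the highest B cell sum (670.4 CPM) and the lowest LYST (1101 CPM). The part of these markers in the result was not tested. The summed markers of hepatocytes reached at most 8.14 CPM, those of sinusoidal endothelium 18.5 CPM and those of myeloid cells 25.6 CPM, where the 1 myeloid gene tested was higher in dim than in liver CD8α high cells. The mast cell and basophil sum reached 82.6 CPM in the dim library of pig 2, all of it KIT, with CPA3, MS4A2 and HDC at 0. The platelet sum was 72.3 to 178 CPM in all populations, nearly all of it GP9. ITGA2B reached at most 7.32 CPM and PPBP at most 2.35 CPM. In each of these lists 1 gene was tested (KIT and GP9) and 0 were called. The T cell sum, nearly all of it CD3G, was 110 to 593 CPM in dim cells and 637 to 1203 CPM in blood. CD3G was lower (289 against 865 CPM), and the other T cell genes tested were not called. CD3D was at 8.43 against 3.78 CPM, higher in 4 of 5 pigs (edgeR adjusted p = 0.188). CD3E was at 2.12 against 10.2 CPM, lower in 5 of 5 pigs (edgeR adjusted p = 0.301).

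**Figure D2:**
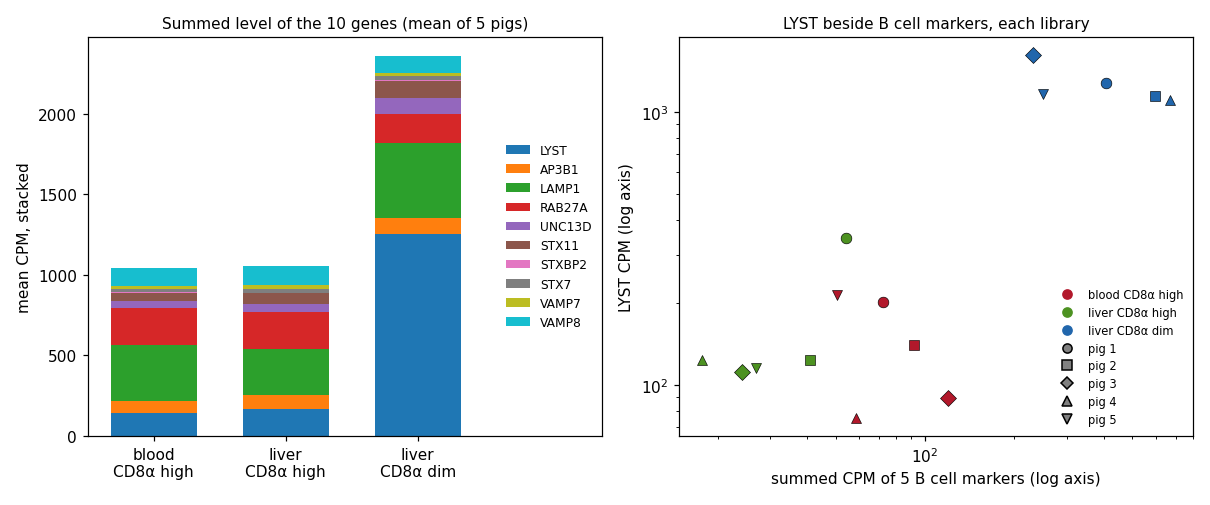
Left, mean CPM of the 10 genes stacked by population (n = 5 pigs, linear axis from 0), and right, LYST CPM against the summed CPM of 5 B cell markers in each library (both axes logarithmic, colours for populations and shapes for pigs). LYST takes 53.3% of the summed level in dim cells, and all dim libraries lie to the upper right of the others, with the highest LYST at the lowest B cell sum among them.

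AP3B1 encodes the β subunit of AP-3, the adaptor that sorts cargo to lysosomes and granules (chromosome 2, 86875922 to 87142722). It was at 60.2, 68.8, 86.0, 58.2 and 77.4 CPM in blood, at 106, 87.0, 86.7, 77.9 and 82.6 CPM in liver CD8α high cells and at 89.7, 76.3, 145, 89.3 and 83.8 CPM in dim cells. The populations overlapped, although AP3B1 was higher in dim cells than in blood in 5 of 5 pigs. Its log2 fold change was 0.46 ± 0.19 (95% interval 0.062 to 0.86) and did not pass the test over all genes (edgeR adjusted p = 0.106). The difference between liver CD8α high cells and blood was 0.33 ± 0.19, also positive in 5 of 5 pigs (adjusted p = 0.9996).

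LAMP1 is the heavily glycosylated membrane protein of lysosomes that appears on the NK cell surface when granules fuse (chromosome 11, 78600818 to 78617587). It had the highest mean CPM of the 10 genes in blood and liver CD8α high cells. Blood libraries held 370.4, 349.8, 342, 374 and 314 CPM and liver CD8α high libraries 316, 311, 316, 249 and 261 CPM. Dim libraries held 415, 308, 921, 366 and 332 CPM, so that pig 3 stood far above the others. Dim against liver CD8α high cells, the log2 fold change was 0.69 ± 0.23 (edgeR adjusted p = 0.0483), and it rests on that library: without it the value was 0.29 (adjusted p = 0.162). With the pig as a block it was 0.60 (adjusted p = 0.0513). Against blood LAMP1 differed by 0.42 ± 0.23 (adjusted p = 0.237), higher in 3 of 5 pigs. Of the 10 NK cell markers that dim library had the lowest dim level of 4 (NCR1, KLRB1, KLRK1 and TBX21) and the highest of 4 (NKG7, PRF1, CD2 and CD8A).

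RAB27A, the small GTPase that tethers the granule at the plasma membrane (chromosome 1, 116532816 to 116606477), pointed the other way. It was at 166, 251, 246, 266 and 217 CPM in blood and at 180, 246, 236, 226 and 247 CPM in liver CD8α high cells. Dim libraries held 171, 156, 184, 168 and 204 CPM. The dim range overlapped the lower part of the other ranges and reached below both. Dim cells differed by -0.38 ± 0.15 on the log2 scale from blood (95% interval -0.69 to -0.056; edgeR adjusted p = 0.0991; lower in 4 of 5 pigs) and by -0.36 ± 0.15 from liver CD8α high cells (adjusted p = 0.136; lower in 5 of 5 pigs), neither past the test. RAB27A was also the steadiest of the 10: its biological coefficient of variation within populations was 0.183, lower than in all but 2.95% of the genes tested, where the median was 0.361.

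Priming was represented by UNC13D, whose product Munc13-4 binds RAB27A and readies the docked granule for fusion (chromosome 12, 5573428 to 5598914). In blood it was at 40.1, 32.9, 27.95, 64.3 and 50.5 CPM and in liver CD8α high cells at 60.1, 52.2, 54.9, 48.4 and 30.8 CPM. In dim cells it was at 102, 93.6, 103, 78.6 and 142 CPM. The lowest dim library (pig 4) was above the highest library of either other population. Its log2 fold change was 1.27 ± 0.24 against blood (95% interval 0.77 to 1.78; edgeR adjusted p = 6.79e-04) and 1.08 ± 0.24 against liver CD8α high cells (adjusted p = 0.00333), with 5 of 5 pigs higher in both. The difference between pigs was wide, from 0.29 in pig 4 to 1.86 in pig 3 against blood. Without pig 5 the difference from liver CD8α high cells was 0.81 and no longer passed the test (adjusted p = 0.0509). The annotated span of UNC13D shares 6413 bases with UNK, which held 18 to 154 counts per library and differed by -0.023 between dim cells and blood.

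LYST and UNC13D were the genes of the 10 whose dim libraries did not overlap those of blood, and the same held against liver CD8α high cells. Such separation was seen for 13.5% of all genes tested in dim cells against blood, for 11.9% in dim against liver CD8α high cells and for 2.01% in liver CD8α high cells against blood, where 0 of the 10 separated. The ratio of UNC13D to RAB27A was 0.468 to 0.695 in dim libraries against 0.113 to 0.242 in blood and 0.125 to 0.335 in liver CD8α high libraries.

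Among the fusion genes STX11 was called. Syntaxin 11 is the plasma membrane SNARE of lytic granule release (chromosome 1, 21127871 to 21170321). It was at 36.3, 54.3, 71.6, 50.6 and 40.3 CPM in blood and at 64.2, 81.0, 69.1, 68.3 and 50.9 CPM in liver CD8α high cells. In dim cells it was at 121, 83.5, 56.0, 159 and 109.96 CPM, higher than in blood in 4 of 5 pigs and lower in pig 3. The log2 fold change against blood was 1.07 ± 0.25 (95% interval 0.55 to 1.58; edgeR adjusted p = 0.00387). Against liver CD8α high cells it was 0.67 ± 0.25 and did not pass the test (adjusted p = 0.0748), but did without the dim library of pig 3 (0.83, adjusted p = 0.00908). The liver CD8α high mean (66.7 ± 10.8 CPM) lay between those of blood (50.6 ± 13.8) and dim cells (106 ± 38.9), and all 3 ranges overlapped. An uncharacterized locus, LOC110259972, shares 13212 bases with STX11 held 0 to 39 counts per library and differed in the same direction (2.94 on the log2 scale against blood, adjusted p = 0.0757). The strand setting of the counting is not given in the sources used here, so it is not known whether reads of the pair were separated.

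STXBP2, which encodes Munc18-2, the partner that stabilizes syntaxin 11, had the lowest mean CPM of the 10 (chromosome 2, 71504575 to 71513446). It ranged from 1.02 to 9.40 CPM in blood, 2.64 to 5.97 CPM in liver CD8α high cells and 0.974 to 5.76 CPM in dim cells, which is 2 to 33 counts per library. No difference was detectable at this depth: dim cells differed from blood by -0.61 on the log2 scale, with a 95% interval from -2.11 to 0.89 (edgeR adjusted p = 0.632). All 8872 bases of the gene are also annotated to PCP2, which held 0 to 8 counts per library.

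The remaining SNARE genes did not differ past the test in any comparison. STX7, a syntaxin of late endosomes (chromosome 1, 31184905 to 31237052), ranged from 14.8 to 20.9 CPM in blood, 13.8 to 41.4 CPM in liver CD8α high cells and 4.38 to 43.2 CPM in dim cells, where pig 3 was the lowest. Its span shares 7201 bases with LOC110260060, which held 4 to 57 counts per library against 9 to 157 for STX7. Its log2 fold change in dim cells against blood was 0.44 (95% interval -0.44 to 1.31; edgeR adjusted p = 0.545). VAMP7 and VAMP8 are vesicle SNAREs of late endosomes and secretory lysosomes (chromosome X, 125863266 to 125917232, and chromosome 3, 59187900 to 59193165). VAMP7 ranged from 7.60 to 35.1 CPM in blood, 16.6 to 25.7 CPM in liver CD8α high cells and 8.77 to 33.1 CPM in dim cells.

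VAMP8 had a higher CPM than VAMP7 in every library, by 3.02 to 14.3 times. It ranged from 92.1 to 156 CPM in blood, 103 to 139.8 CPM in liver CD8α high cells and 68.2 to 164 CPM in dim cells. Its interval was the tightest of these genes: the log2 fold change of dim cells against blood was -0.077, with a 95% interval from -0.53 to 0.38 (edgeR adjusted p = 0.864). The interval of VAMP7 in the same comparison ran from -0.96 to 0.65 (adjusted p = 0.847).

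**Figure D3:**
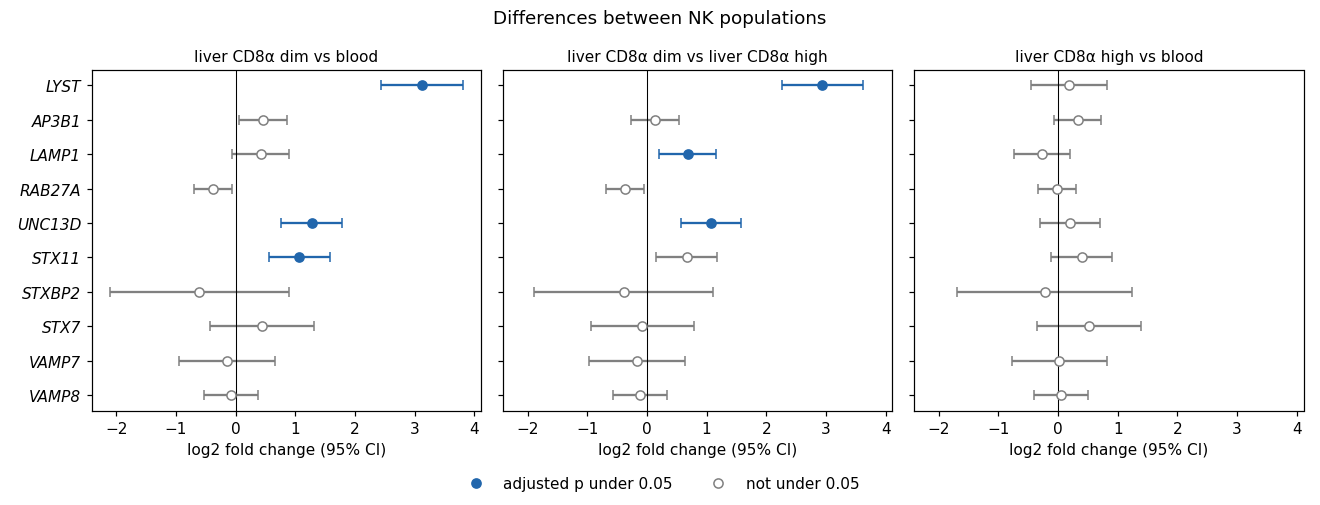
Log2 fold changes of the 10 genes with 95% intervals from the edgeR fit (n = 5 pigs in each population), with filled points at an adjusted p under 0.05. LYST and UNC13D are filled in both dim comparisons, STX11 against blood and LAMP1 against liver CD8α high cells, and no point is filled for liver CD8α high cells against blood.

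For liver CD8α high cells against blood, 0 of the 10 genes were called by edgeR, 0 had an unadjusted p under 0.05, and 0 were called by DESeq2. Of all genes tested in edgeR, 0.064% were called there and 5.02% had an unadjusted p under 0.05. The values ran from a log2 fold change of -0.27 for LAMP1, lower in 5 of 5 pigs, to 0.51 for STX7, higher in 3 of 5. The intervals do not show that the populations were alike: that of STX11 ran from -0.12 to 0.91 and that of UNC13D from -0.31 to 0.70. In dim cells 5 of the 10 genes had an unadjusted p under 0.05 in each comparison, where 29.5% of all genes did so against blood and 24.9% against liver CD8α high cells.

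The wider machinery around the 10 genes was read from 7 lists with 117 other genes (biogenesis and the LYST family, AP-3 and BLOC complexes, HOPS tethers, Rab GTPases and effectors, SNAREs and SM proteins, cytoskeleton, and membrane proteins of granules and lysosomes), of which 89 were tested. In dim cells against blood 10 of the 89 were called, 2 higher and 8 lower, which is 11.2% against a background of 18.2% (8.62% higher and 9.60% lower). Their median log2 fold change was -0.17. Against liver CD8α high cells 12 of 89 were called, 4 higher and 8 lower (13.5%, background 14.6%, of which 7.68% lower), with a median of -0.15. Neither share stood above the background, and the lower calls, 8 of 89 in each comparison, were near it. In liver CD8α high cells against blood 0 of 89 were called (background 0.064%), and DESeq2 called 1, lower. An unadjusted p under 0.05 in edgeR was seen there for 1 of 89, and for 5.02% of all genes tested.

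**Figure D4:**
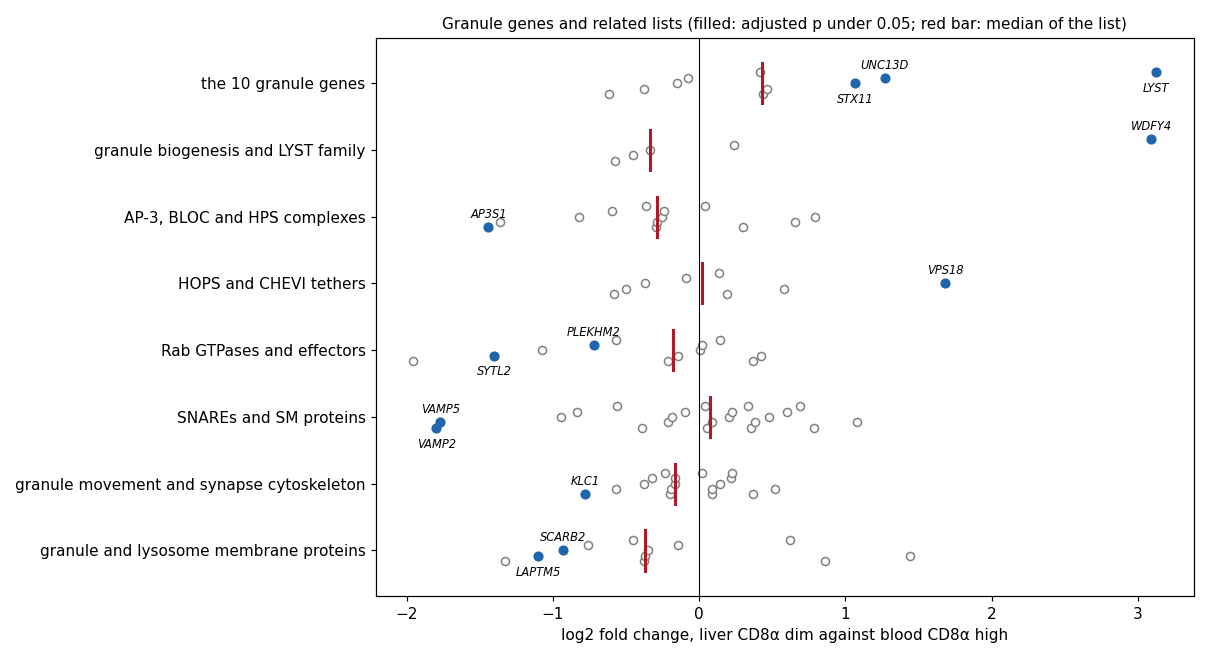
Log2 fold change of liver CD8α dim against blood CD8α high cells for the 10 granule genes and the tested genes of 7 related lists (each point a gene, filled and named at an edgeR adjusted p under 0.05, bars at the list median). Of the 10 called genes of the related lists 8 lie below 0, and WDFY4 and VPS18 lie above it.

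In the LYST family 1 of 5 genes tested was called, WDFY4, a BEACH domain protein like LYST that is known from antigen presentation by dendritic cells. Its dim libraries held 16.6, 76.8, 14.1, 55.3 and 35.8 CPM in pigs 1 to 5, and blood libraries 2.05 to 5.78 CPM. The log2 fold change was 3.09 ± 0.57 against blood (edgeR adjusted p = 4.89e-04) and 4.34 ± 0.62 against liver CD8α high cells (adjusted p = 3.52e-05). WDFY4 was highest in the dim libraries of pigs 2 and 4, which also had the highest B cell marker sums (597 and 670.4 CPM), and the part of those markers in the WDFY4 level was not tested.

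In the AP-3, BLOC and HPS list 1 of 13 genes tested was called against blood, AP3S1, the small σ subunit of AP-3. It was at 12.04, 44.6, 26.8, 33.1 and 12.8 CPM in dim cells and 56.2 to 85.3 CPM in blood, and fell by 1.44 on the log2 scale (SE 0.29; edgeR adjusted p = 0.00124). The other subunits of the adaptor did not pass the test against blood (AP3B1 above; AP3D1 -0.29, adjusted p = 0.274; AP3M1 -0.36, adjusted p = 0.704), and against liver CD8α high cells AP3S1 was lower (-1.26, adjusted p = 0.00457) and AP3S2 was called higher (1.41, adjusted p = 0.0400; 0.0512 with the pig as a block). No difference between subunits was tested, and AP3D1, AP3M1 and AP3S2 were named after their values were seen. Of the 8 HOPS and CHEVI genes, VPS18 was called against blood (1.68, edgeR adjusted p = 0.0471), but with the pig as a block it was not (adjusted p = 0.107). The call held in 4 of 13 alternatives and in 0 of the 5 that left out a pig. The dim library of pig 3 was at 56.0 CPM against 9.60 to 16.7 CPM in the other dim libraries, and without it the value was 0.90.

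Among 12 Rab GTPases and effectors tested, 2 were lower in dim cells. SYTL2 encodes Slp2-a, an effector that links RAB27 on granules to the plasma membrane. It was at 207, 124, 155, 166 and 180 CPM in dim cells and 373 to 496 CPM in blood, with no overlap, and fell by 1.40 on the log2 scale (SE 0.15; edgeR adjusted p = 6.25e-07). Against liver CD8α high cells, at 369 to 467 CPM, SYTL2 fell by 1.35 (adjusted p = 1.45e-06). PLEKHM2, which couples lysosomes to kinesin, was the other (-0.72, adjusted p = 0.0289), lower in 4 of 5 pigs. RAB27B, the close relative of RAB27A, was not tested because its counts were low, at 0 to 29 per library, and UNC13A and UNC13B had 0 to 9 counts per library, against 103 to 543 for UNC13D.

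Of 22 SNARE and SM genes tested, 2 were called against blood, both lower and both vesicle SNAREs. VAMP2, best known from synaptic vesicles, was at 6.74 to 18.7 CPM in dim cells and 29.8 to 68.7 CPM in blood and fell by 1.80 on the log2 scale (edgeR adjusted p = 3.68e-04). VAMP5 was at 18.7 to 50.2 CPM and 82.0 to 114 CPM and fell by 1.77 (adjusted p = 2.00e-05). Against liver CD8α high cells 2 SNARE genes were lower, VAMP2 (-1.22, adjusted p = 0.0118; 0.0642 without pig 5) and VAMP5 (-1.66, adjusted p = 5.39e-05), and 1 was higher. The higher gene was VAMP1 (1.70 ± 0.32, adjusted p = 7.77e-04; 16.3 to 48.2 against 6.06 to 13.4 CPM), which lay at 19.0 to 28.7 CPM in blood, within the dim range. SNAP23, the plasma membrane SNARE that pairs with syntaxin 11 and also chosen after its values were seen, differed by 0.60 from blood and was outside the call in edgeR (adjusted p = 0.0583) and inside it in DESeq2 (adjusted p = 0.0389).

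From the lists on movement and on granule membranes 3 genes were called in dim cells against blood. KLC1, a kinesin light chain that carries lysosomes along microtubules, was the 1 called of 17 movement genes there (-0.78, edgeR adjusted p = 0.0252), and its call was lost without the dim library of pig 3 (-0.64) and in 4 other alternatives. Of 12 lysosome membrane genes LAPTM5 and SCARB2 were called against blood. Against liver CD8α high cells 2 of the 17 movement genes (CORO1A and KIF5B, both lower) and 3 of the 12 membrane genes (LAPTM5 and SCARB2 lower, MCOLN1 higher) were called, and KIF5B lost its call in the fit blocked by pig (adjusted p = 0.0585). LAPTM5, a lysosomal protein of blood cells, was at 409, 669, 1133, 515 and 412 CPM in dim cells and 1046 to 1839 CPM in blood (-1.10, adjusted p = 0.00161). SCARB2, the receptor that carries glucocerebrosidase to lysosomes, was at 43.4 to 92.7 CPM against 94.7 to 139 CPM (-0.93, adjusted p = 0.00511). CD63, like LAMP1 a marker of the granule membrane and chosen after its values were seen, was at 618 ± 203 CPM in dim cells and 683 ± 69.0 CPM in blood (-0.14, adjusted p = 0.654).

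The cargo of the granules did not follow a single direction. In dim cells against blood GZMA was higher by 2.35 on the log2 scale (edgeR adjusted p = 3.50e-04) and SRGN, the proteoglycan core that packs granzymes, by 1.76 (512 ± 69.2 against 151 ± 49.2 CPM, adjusted p = 1.75e-05). GZMB fell by 2.63 (32.9 against 209 CPM, adjusted p = 5.59e-04) and GNLY by 6.03 (21.5 against 1438 CPM, adjusted p = 4.02e-08). PRF1, the perforin gene, was at 318 ± 149 and 304 ± 39.9 CPM and differed by 0.059 (adjusted p = 0.900).

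The genes whose log2 CPM followed the called members most closely over the 15 libraries, among 3700 genes with a mean of at least 50 CPM, are given as a description, since all points share the difference between populations. For LYST they were PLXNC1, a semaphorin receptor (Pearson r = 0.978), CEP83, a centriole protein (0.973), and ZBTB38, a zinc finger protein that binds methylated DNA (0.972). After the population means were removed, r was 0.85, 0.77 and 0.71. The values within populations, here and below, come from the same 15 libraries used to pick the genes and are not a separate check. For UNC13D they were F2R, the thrombin receptor (0.904), CAMK4, a calcium-dependent kinase (0.902), and SLC20A1, a phosphate transporter (0.901), with 0.58, 0.61 and 0.61 within populations. For STX11 they were SEPHS2, an enzyme of selenium metabolism (0.907), SLC35A1, the CMP-sialic acid transporter (0.885), and KLRB1, which encodes CD161 (0.878), with 0.81, 0.77 and 0.76 within populations.

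Of 7 stress and immediate early genes tested, HSPA8, a constitutive heat shock protein, was higher in both liver populations than in blood (1380 CPM in dim, 1413 in liver CD8α high and 636 in blood cells; edgeR adjusted p = 2.07e-04 and 0.0103). It was the 1 of these 7 called in liver CD8α high cells against blood. In dim cells against blood EGR1 was higher as well (3.44 on the log2 scale, adjusted p = 0.00382) and JUNB lower (-1.04, adjusted p = 0.00161). In dim against liver CD8α high cells 0 of the 7 were higher and 2 lower, IER2 (-0.74, adjusted p = 0.0207) and JUNB (-0.84, adjusted p = 0.00985). The part of these genes in the results above was not tested.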

How the data were processed

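Blood, liver CD8α high and liver CD8α dim NK cells of 5 pigs were profiled by QuantSeq 3′ mRNA sequencing. According to the study's methods and the submitters' processing notes, the authors trimmed reads with QuasR, aligned them with HISAT2 to the pig genome (Sscrofa11.1) and deposited raw counts of reads per gene. The counting tool and strand setting are not given in the sources used here. Library totals were 2003499 to 5680221 counts, so genes with few counts are measured with low precision.

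Tests on the counts used edgeR 4.0.16 (R 4.3.3, TMM scaling, filterByExpr by population, quasi-likelihood test, all 15 libraries in 1 fit, Benjamini-Hochberg over 10939 genes, calls at adjusted p under 0.05). The SE is the log2 fold change divided by the square root of F. The test was tried on simulated data first. Log2 CPM for likeness between genes used a prior count of 2. DESeq2 1.42.0, other scaling, no filter, robust dispersion, a 2-population fit, a pig block and leaving out each pig were alternatives. Leaving out a single library (dim, pig 3, and liver CD8α high, pig 1) was added after the data were seen. Figures used Python 3.11.15 and matplotlib 3.10.9.

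Libraries of the same number come from the same pig (sample labels and the study's methods), so the block is a true pairing. Deviations from population means correlated by 0.107 on average within a pig (15 pairs) and -0.027 between pigs (60 pairs).

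Besides the 10 members, genes were named from the lists if called, at a mean of at least 10 CPM and in the same direction in 5 of 5 pigs (at most 8 each way against blood, 4 in the other comparisons). PLEKHM2, AP3D1, AP3M1, AP3S2, MCOLN1, CORO1A, KIF5B, SNAP23, CD63 and the low-count relatives fall outside this rule. The members and lists were chosen with earlier results of these data known. Of the lists, 116 of 117 genes are in the table. Coordinates are RefSeq's for Sscrofa11.1, and no sequence was used here. A marker gene of the lists is not reported here.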

Additional observations from a re-analysis of the deposited data

Results flagged for a closer look

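Each of the 10 genes was examined in each population for a library far from the other 4, by the gap to its nearest neighbour as a share of the range (Dixon's 95% limit for 5 values, 0.71). Of 30 groups examined 3 stood out, and chance alone gives about 1 in 20. LYST was at 346 CPM in the liver CD8α high library of pig 1 against 111 to 124 CPM in the other 4. AP3B1 was at 145 CPM in the dim library of pig 3 against 76.3 to 89.7 CPM, and LAMP1 was at 921 CPM in the same library against 308 to 415 CPM.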

How the results depend on the processing

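In dim cells against blood 3 members (LYST, UNC13D and STX11) were called in each of the 13 alternatives. Against liver CD8α high cells 2 or 3 were called, except without pig 5, so that leaving out pigs or single libraries gave 1 to 3. There LYST was called in 13 of 13, UNC13D in 12 of 13, LAMP1 in 4 of 13 and STX11, uncalled in the fit reported, in 2 of 13, both without the dim library of pig 3. In liver CD8α high cells against blood 0 members were called in any alternative. Over the single genes followed, 709 values kept direction and side of the threshold, 26 lost a call, 5 gained it and 27 changed sign, and those that changed sign were not called in the fit reported.

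With the replicate block (the pairing by pig) LAMP1 lost its call in dim against liver CD8α high cells (0.60), as did AP3S2 (adjusted p = 0.0512) and KIF5B (adjusted p = 0.0585), and VPS18 against blood (adjusted p = 0.107). PRF1 against blood became -0.012. The block changed no other call of the members, the cargo or the named list genes.

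Leaving out a pig or 1 library moved these uncalled values across 0. In dim cells against blood VAMP7 ran from -0.54 to 0.26, VAMP8 from -0.17 to 0.067, PRF1 from -0.25 to 0.23 and AP3M1 from -0.65 to 0.10. In liver CD8α high cells against blood LYST ran from -0.28 to 0.49, RAB27A from -0.054 to 0.058, STXBP2 from -0.64 to 0.061, VAMP7 from -0.13 to 0.34 and VAMP8 from -0.048 to 0.22. In dim against liver CD8α high cells AP3B1 ran from -0.060 to 0.23, STX7 from -0.29 to 0.29, VAMP8 from -0.36 to 0.020 and PRF1 from -0.39 to 0.042.

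The 7 genes of the whole table called in liver CD8α high cells against blood became 24 with DESeq2, 18 without the filter, 4 with robust dispersion, 16 in the 2-population fit and 0 to 12 when a pig or library was left out, and DESeq2 called 1 list gene there. In dim against liver CD8α high cells leaving out pigs or libraries gave 7 to 17 list genes (12 with all) and 1051 to 1764 genes in all (1601 with all). The causes were not tested.

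With 5 pigs and 2003499 to 5680221 counts per library, STXBP2 and the untested list genes were measured with few counts, and differences of STXBP2 are bounded by wide intervals only. LYST, AP3B1, UNC13D, STX11, STXBP2 and STX7 overlap other annotated loci (2271 to 13212 shared bases), and the strand setting of the counting is not given in the sources used here. Counts of RNA do not show protein, granule number or release.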
